A study of Populus ussuriensis with 18 samples.

Results

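The loci described here are those of poplar stem cuttings whose transcripts were most abundant at 96 h after cutting and had risen to that level from one at least 16-fold lower. They were selected on their own measured levels. For each locus the FPKM of its transcripts were added up, averaged over the 2 libraries of a time point and taken as log2(mean + 1), and a locus was chosen when its highest value from 0.5 h to 96 h lay at 96 h and its highest and lowest values were at least 4 apart. FPKM is the number of reads per kilobase of transcript and per unit of library size. Of 36385 listed loci, 137 (0.377%) met this rule. The 0 h libraries had no part in it. Because the rule used every level from 0.5 h to 96 h, the courses over that period are given as a description. Counts of loci that a fit over all loci called in that period are printed beside the share of all loci, and are no test of the members.

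The RNA came from the basal 0.5 cm of stem cuttings of Populus ussuriensis, a poplar. The plants were 2 weeks old and grew in vitro on diluted Murashige and Skoog medium with 20 g/L sucrose, under days of 16 h light and nights of 8 h, at 25 °C. The labels name neither a genotype nor an added hormone. Total RNA was taken at 0, 0.5, 1, 2, 6, 12, 24, 48 and 96 h after cutting, in 2 libraries per time point and 18 in all. Nothing in the labels tells whether libraries taken at the same time stem from different plants or flasks, so every p-value rests on a spread between libraries that may be technical alone. No uncut plants of the later times are among the libraries, and the times that share the clock time of 0 h are 24, 48 and 96 h.

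Adventitious roots are roots that arise from tissue other than a root, and poplars are propagated through them. Cutting a stem wounds it, interrupts the transport of auxin towards the base and the flow of water from the root, and in the following days cells near the vascular cambium can resume division and organise into root primordia. Genes that reach their highest transcript level late in this period can belong to dividing cells, to newly specified root tissue, to differentiating vessels and fibres or to the tissue that seals the wound. Which of these the 137 loci belong to is not known from these data. The files do not pair their identifiers with gene names, no annotation or sequence was used here, and the markers of these tissues could not be looked up. For this reason 4 loci are named, and other loci are called by their rank in mean level at 96 h. In a bulk sample, fewer cells of a type and less RNA per cell cannot be told apart.

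The 3 members of smallest range had ranges of 4.0006, 4.0106 and 4.0106 on the log2 scale and means at 96 h of 17.4, 15.1 and 23.8 FPKM. The 3 loci just outside it had ranges of 3.9997, 3.9973 and 3.9965, with means at 96 h of 83.3, 15.3 and 37.0 FPKM.

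The level at 96 h was moderate for most of the 137 loci. Their means at 96 h ran from 15.1 to 5514 FPKM with a median of 35.0 FPKM. Of the 137, 34 reached 100 FPKM or more, 18 lay from 50 to 100 FPKM, 71 from 20 to 50 FPKM and 14 under 20 FPKM. The median range from lowest to highest time point was 4.70 on the log2 scale, and 49 loci had a range of at least 5, 16 of at least 6 and 4 of at least 7. In the 128 loci for which the length of every transcript was recovered, the 96 h libraries held between 120 and 253447 reads per locus in replicate 1, with a median of 1525, and between 216 and 248418 in replicate 2, with a median of 1491. Counting error is therefore small at 96 h, and much larger at early times, where many of the loci were low. In the libraries after cutting, 96 h included, 3 reads on a transcript of 1 kb are worth between 0.0979 and 0.105 FPKM.

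From 2 h on, the 137 loci together made up a growing part of the measured transcripts, which the rule favours. At 0 h, which the rule did not use, their summed level was 1749 and 1493 FPKM. The sum was 819 and 1073 FPKM in the libraries of 0.5 h, 734 and 652 FPKM at 1 h, 703 and 515 FPKM at 2 h, and 1390 and 1609 FPKM at 6 h. It was 2885 and 3079 FPKM at 12 h, 4906 and 5221 FPKM at 24 h, 8818 and 9277 FPKM at 48 h, and 15606 and 15298 FPKM at 96 h. As a share of the FPKM of all listed loci this was 0.316% and 0.279% at 0 h and 0.131% and 0.116% at 1 h. The share was 0.124% and 0.092% at 2 h and 2.63% and 2.62% at 96 h. The locus of highest level held 35.4% and 35.9% of the sum at 96 h. Without it the sum was 322 and 294 FPKM at 1 h, 4248 and 4336 FPKM at 48 h, and 10075 and 9800 FPKM at 96 h, so the rise after 48 h lay mostly in the other loci.

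**Figure D1:**
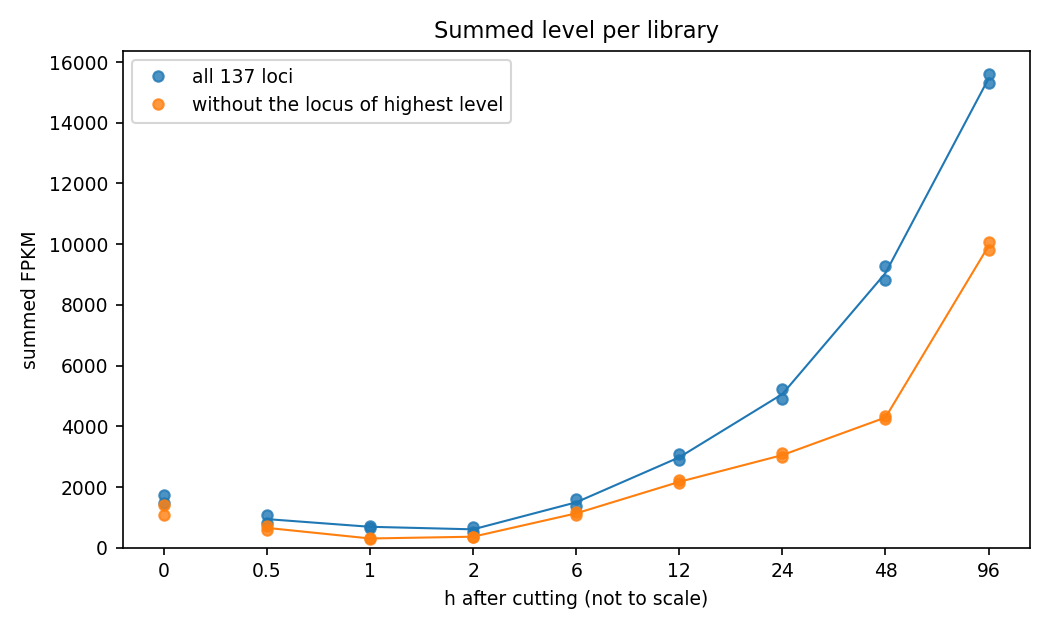
Summed FPKM (y axis) of the 137 loci in each library by hours after cutting (x axis, not to scale), for all of them (blue) and without the locus of highest level (orange). Each point is 1 library and the lines join the means of the 2 libraries from 0.5 h on; at 96 h the sums were 15606 and 15298 FPKM with that locus and 10075 and 9800 FPKM without it.

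The libraries of 96 h gave like levels. The 2 values of a locus differed by a median of 0.23 on the log2(FPKM + 1) scale, with 75 loci higher in replicate 2 and 62 in replicate 1. In 2 loci they were more than 2-fold apart. That of rank 43 held 110 FPKM in replicate 1 and 28.0 FPKM in replicate 2 of 96 h, and 2.26 and 2.79 FPKM at 48 h. That of rank 81 held 43.8 and 19.1 FPKM at 96 h, and 1.71 and 1.23 FPKM at 48 h. Even in these loci the lower library of 96 h stood above both of 48 h.

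In 124 of the 137 loci (90.5%) both libraries of 96 h exceeded all 14 libraries from 0.5 h to 48 h, against 13.0% of the 26765 loci tested, and the rule itself favours this. The remaining 13 overlapped with an earlier time, 9 of them with 48 h, 2 with 12 h, 1 with 2 h and 1 with 24 h. For these the 96 h maximum is a matter of means and was not larger than the spread between libraries.

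The locus with the most transcripts at 96 h was Potri.013G101000, with 1 listed transcript of 1495 bp. It held 227 and 351 FPKM at 0.5 h, 413 and 357 FPKM at 1 h, 331 and 154 FPKM at 2 h, and 292 and 436 FPKM at 6 h, a stretch over which the libraries of different times overlapped. It then held 763 and 854 FPKM at 12 h, 1780 and 2237 FPKM at 24 h, 4570 and 4941 FPKM at 48 h, and 5531 and 5497 FPKM at 96 h. From 12 h on, both libraries of each time lay above both of the time before. The last of these rises, from 48 h to 96 h, was 0.21 on the log2 scale. It was not called in the fit over all loci (limma, adjusted p 0.63). The 96 h values stand on 253447 and 248418 reads, and the mean at 96 h of 5514 ± 23.6 FPKM (SD, n = 2) was far above the 758 FPKM of the locus of rank 2. At 0 h it held 350 and 412 FPKM, within the values from 0.5 h to 6 h.

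The locus with the largest range was Potri.001G051600, with 1 listed transcript of 1601 bp and a range of 7.49 on the log2 scale. It held 0.0412 and 0.0857 FPKM at 0.5 h, 0.638 and 0.219 FPKM at 1 h, and 2.13 and 0.211 FPKM at 2 h, which are between 2 and 100 reads. It held 26.2 and 19.8 FPKM at 6 h, 75.1 and 76.4 FPKM at 12 h, 84.3 and 57.1 FPKM at 24 h, 92.0 and 70.3 FPKM at 48 h, and 187 and 193 FPKM at 96 h. The levels went up in a pair of stages, from 2 h to 12 h and from 48 h to 96 h, while the libraries of 12 h, 24 h and 48 h overlapped. In the fit over all loci (limma), the second stage was 1.23 on the log2 scale and was not called (adjusted p 0.059). At 0 h the libraries disagreed, with 2.37 and 0.20 FPKM.

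**Figure D2:**
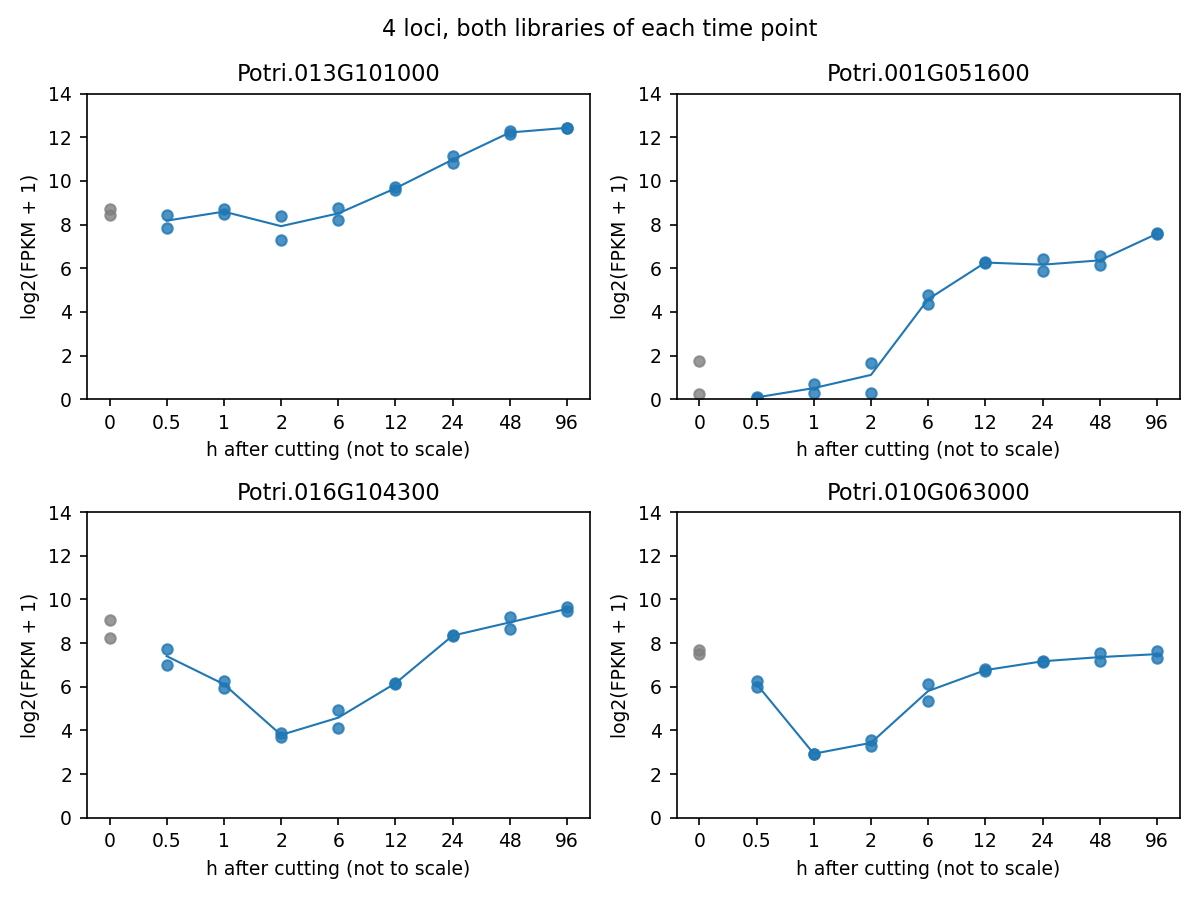
log2(FPKM + 1) (y axis) of the 4 named loci in both libraries of each time point by hours after cutting (x axis, not to scale); grey points are 0 h, blue points the later times and lines join the log2 of the later means. Potri.013G101000 went up from 12 h on to a mean of 5514 FPKM and Potri.001G051600 from 2 h to 12 h and again to 190 FPKM at 96 h. The loci Potri.016G104300 and Potri.010G063000 had means of 415 and 194 FPKM at 0 h, were low in the following hours and had 758 and 179 FPKM at 96 h.

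The low point of the course was counted as early in most loci. The lowest mean was at 0.5 h in 47 loci, at 1 h in 38 and at 2 h in 30, which makes 115 of 137 (83.9%). It was at 6 h in 13, at 12 h in 6, at 24 h in 2 and at 48 h in 1. Where several times shared the lowest mean, as in loci listed at 0 at several times, the earliest was counted. In 27 loci all 14 libraries from 0.5 h to 48 h were under 1 FPKM, so the time of their low point means little. Under 1 FPKM were 81 loci at 0.5 h, 89 loci at 1 h and 84 loci at 2 h. Still so low were 67 loci at 6 h, 59 loci at 12 h, 48 loci at 24 h, 33 loci at 48 h and 0 loci at 96 h. The median over the loci was 0.386 FPKM at 1 h, 1.16 FPKM at 6 h, 2.38 FPKM at 12 h, 3.30 FPKM at 24 h, 5.56 FPKM at 48 h and 35.0 FPKM at 96 h.

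The loci left their low point mostly at 6 h or only at 96 h. A locus was first at least 2 above its lowest mean on the log2 scale at 1 h in 1 case, at 2 h in 3, at 6 h in 32, at 12 h in 18, at 24 h in 15, at 48 h in 15 and at 96 h in 53. After the low point 44 loci had a higher mean at every time than at the one before, and 11 passed through an earlier maximum at least 1 on the log2 scale above both the lowest mean before it and the lowest between it and 96 h, at 2 h in 3 loci, at 6 h in 4 and at 12 h in 4.

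An example is the locus of rank 57. It held 1.33 and 1.67 FPKM at 0.5 h, 13.3 and 23.1 FPKM at 1 h, 35.1 and 44.7 FPKM at 2 h, 18.5 and 13.6 FPKM at 6 h, 6.38 and 5.74 FPKM at 24 h, 7.55 and 3.57 FPKM at 48 h, and 54.5 and 40.4 FPKM at 96 h. The higher library of 2 h lay above the lower library of 96 h. The locus of rank 3 instead had an earlier maximum at 12 h, with 294 and 295 FPKM, then 135 and 88.8 FPKM at 48 h and 369 and 265 FPKM at 96 h, so that its 12 h and 96 h libraries overlapped.

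The loci differed widely in how much of the increase lay in the last interval. The difference of 96 h minus 48 h on the log2(mean + 1) scale was at least 4 in 34 loci (24.8%), from 2 to 4 in 40 (29.2%), from 1 to 2 in 25 (18.2%) and under 1 in 38 (27.7%). The median step was 2.32 in this interval and between -0.07 and 0.44 in the 6 intervals before it. The intervals differ in length, so steps are not rates.

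**Figure D3:**
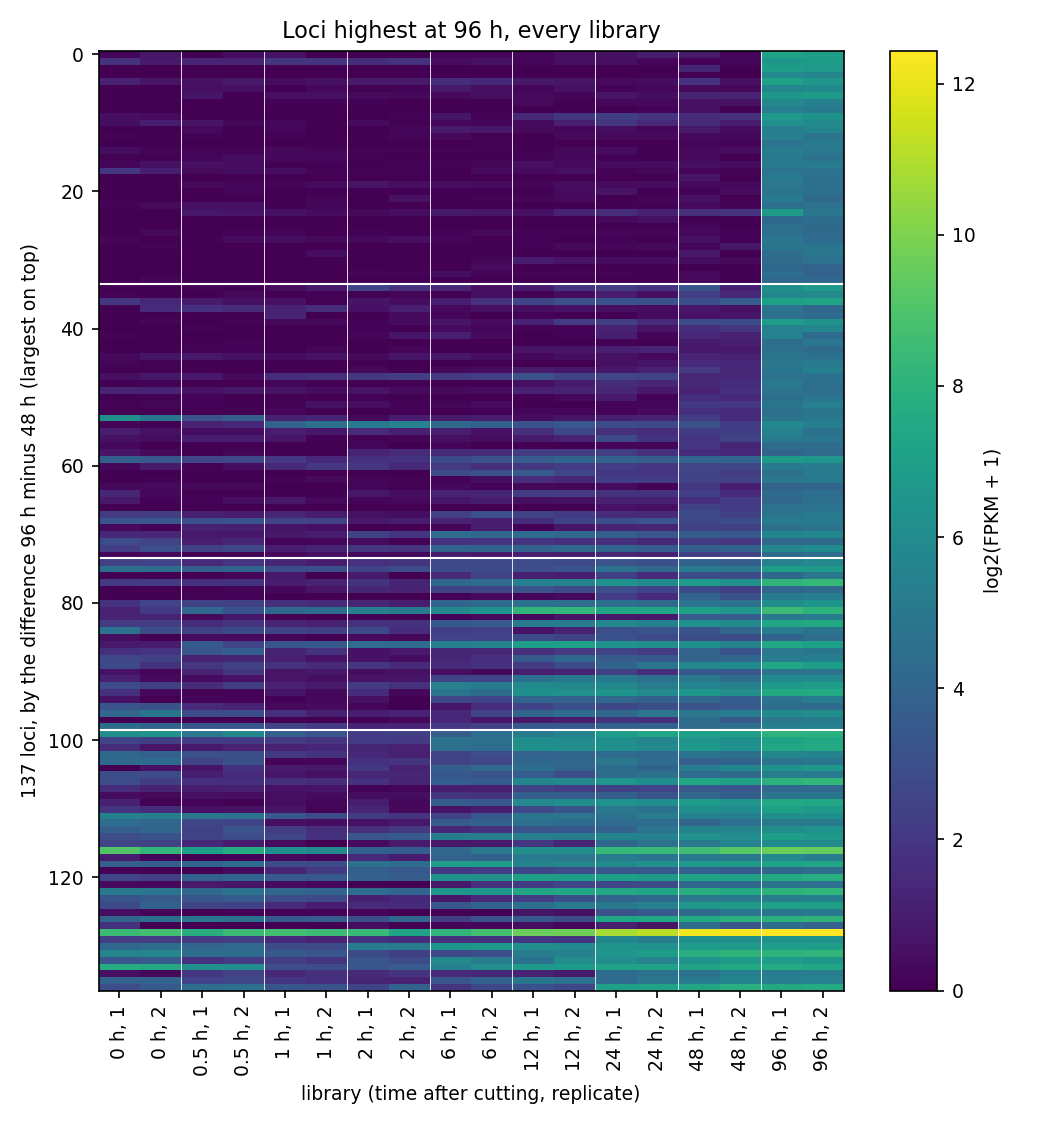
log2(FPKM + 1) (colour) of the 137 loci (rows, sorted by 96 h minus 48 h with the largest on top) in all 18 libraries (columns, time after cutting and replicate). White horizontal lines separate the 34 loci with a last step of at least 4, the 40 from 2 to 4, the 25 from 1 to 2 and the 38 under 1; the upper rows are dark until 96 h and the lower rows brighten from 6 h on.

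The 34 loci with a last step of at least 4 were nearly silent before 96 h. Their median was 0.0462 FPKM at 0.5 h, 0.163 FPKM at 24 h and 0.230 FPKM at 48 h, and 29.3 FPKM at 96 h, and none exceeded a mean of 2.52 FPKM at 48 h. Of the 137 loci, 26 stayed under 1 FPKM in all 16 libraries from 0 h to 48 h. These 26 had means at 96 h from 16.0 to 138 FPKM with a median of 26.6 FPKM, and no 96 h library of them lay below 14 FPKM. In these loci the values before and at 96 h did not overlap in any library. This follows largely from how they were picked and is no result about them.

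The largest last step, 6.53 on the log2 scale, was that of the locus of rank 22. It held between 0 and 0.947 FPKM in the 14 libraries from 0.5 h to 48 h, 0.862 and 0.131 FPKM of these at 48 h, and 149 and 126 FPKM at 96 h. That of rank 51 was listed at 0 in the libraries of 0, 0.5, 1 and 2 h and held at most 0.0560 FPKM up to 48 h, and then 56.6 and 49.4 FPKM at 96 h. At rank 35 the level was lower just before the increase than early on. This locus held 2.70 and 2.69 FPKM at 1 h and 0.0894 and 0.135 FPKM at 48 h, then 91.4 and 109 FPKM at 96 h, a last step of 6.50.

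The 40 loci with a last step from 2 to 4 were low as well, though detectable earlier. Their median was 0.541 FPKM at 6 h, 0.918 FPKM at 12 h, 1.37 FPKM at 24 h, 2.91 FPKM at 48 h and 29.1 FPKM at 96 h. In 20 of these 40 loci the mean at 96 h was the earliest at least 2 above the lowest on the log2 scale.

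The 25 loci with a last step from 1 to 2 and the 38 with a smaller one had higher medians at every time, 0 h included. At 0.5 h their medians were 2.24 and 4.80 FPKM, against 0.0462 and 0.0930 FPKM in the 34 and the 40. In the 25 the median was 1.17 FPKM at 2 h, 4.60 FPKM at 6 h, 7.44 FPKM at 12 h, 13.51 FPKM at 24 h, 15.3 FPKM at 48 h and 40.1 FPKM at 96 h. In the 38 it was 2.32 FPKM at 2 h, 9.82 FPKM at 6 h, 23.0 FPKM at 12 h, 33.6 FPKM at 24 h, 70.2 FPKM at 48 h and 96.7 FPKM at 96 h. Of the 38, 17 were first at least 2 above their lowest mean at 6 h, 9 at 12 h and 9 at 24 h. The smallest last step, 0.03 on the log2 scale, was that of the locus of rank 11, with 138 and 149 FPKM at 24 h, 157 and 225 FPKM at 48 h, and 189 and 200 FPKM at 96 h. For this locus 48 h and 96 h overlapped.

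**Figure D4:**
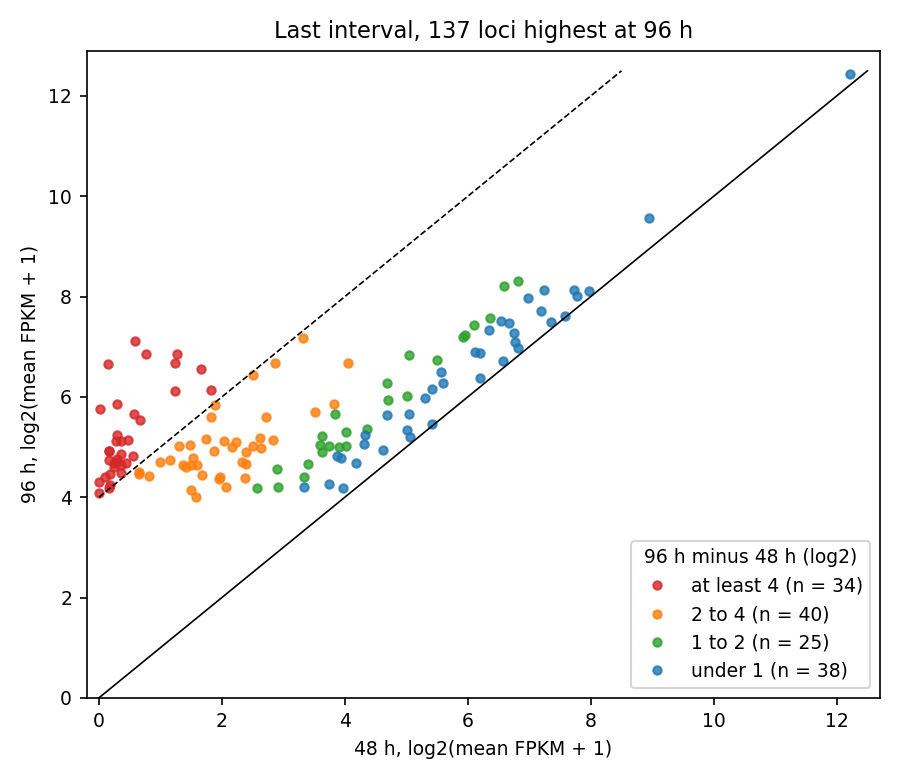
log2(mean FPKM + 1) at 48 h (x axis) and 96 h (y axis) of the 137 loci, 1 point each, coloured by the difference. The solid line marks equal levels and the dashed line a difference of 4; the 34 red points lie at means of at most 2.52 FPKM at 48 h, and the point at the upper right is Potri.013G101000.

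The comparisons of consecutive time points by limma, fitted to all 18 libraries over the 26765 loci with at least 1 FPKM in at least 2 libraries, count a locus as changed at a Benjamini-Hochberg adjusted p below 0.05. All 137 loci passed that filter, 30 of them only through the 96 h libraries. The rule had used these contrasts, so nothing is read from the counts. From 0.5 h to 1 h, 5 of the 137 were called higher and 38 lower, where 13.9% and 30.3% of all tested loci were. From 1 h to 2 h, 19 were called higher and 12 lower, beside 20.8% and 15.6% of all. From 2 h to 6 h, 53 were called higher and 4 lower, beside 34.2% and 18.3%. From 6 h to 12 h, 49 were called higher and 3 lower, beside 14.3% and 9.61%. From 12 h to 24 h, 36 were called higher and 3 lower, beside 8.80% and 10.6%. From 24 h to 48 h, 37 were called higher and 2 lower, beside 2.41% and 2.66%. From 48 h to 96 h, 112 were called higher and 0 lower, beside 18.7% and 9.78%.

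Single libraries weighed on several of these counts, of which some of the smaller are given here. Of the loci lower at 1 h, the count of 38 dropped to 23 when 0.5 h replicate 2 was left out, and equally to 23 when 1 h replicate 2 was. Of those higher at 2 h, the 19 were 12 if either 1 h replicate 2 or 2 h replicate 1 was left out. The 36 higher at 24 h were 21 if 12 h replicate 1 was left out and 23 if 24 h replicate 1 was. The 37 higher at 48 h were 21 if 24 h replicate 2 was left out and 18 if 48 h replicate 1 was.

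Between 24 h and 96 h, which lie at the same time of day, 130 of the 137 were called higher and 0 lower, beside 18.5% and 11.4% of all tested loci (limma, Benjamini-Hochberg adjusted p below 0.05). The median change of the 137 was 2.81 on the log2 scale and that of all tested loci 0.08. This contrast too was used by the rule.

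The levels at 0 h were not used to choose the loci and show where they stood at the time of cutting. The tables of 0 h head their value column differently from those of later times. The fit of low values to whole lengths, run alike on each library, scored 0.5996 and 0.5536 at 0 h. In the later libraries it scored 0.8027 to 0.8663. With the recovered lengths, 39.2% and 38.8% of the 0 h values came out as whole reads within 0.02 reads. The 100% of the later values follows from the search, which asked for whole reads there. The 0 h libraries took no part in it and their totals were not refined, so these shares cannot be compared. In every comparison with 0 h, a change after cutting and a difference in how the deposited tables were made cannot be told apart.

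At 0 h most of the 137 loci were low or absent. Their median was 0.457 FPKM, and 80 of 137 (58.4%) were under 1 FPKM, against 20.7% of all tested loci. In both 0 h libraries 30 (21.9%) were listed at 0, against 6.68% of all tested loci, and 21 (15.3%) had 10 FPKM or more, against 40.3%. Among loci of like range that were highest at another time, the share under 1 FPKM at 0 h ran from 5.0% of the 160 highest at 0.5 h to 52.4% of the 103 highest at 48 h. Of the 137, 30 passed the filter of the tested loci only through the 96 h libraries. Such a locus could not reach 1 FPKM in both 0 h libraries, so the filter itself favours low levels at 0 h among the 137. These shares are a description and were not tested against each other.

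The comparison of 0.5 h with 0 h shows how the loci stood right after cutting. By limma, 12 of the 137 were called higher and 33 lower at 0.5 h, where 26.0% and 23.7% of all tested loci were (Benjamini-Hochberg adjusted p below 0.05). The share of the loci called lower was near that of all tested loci and is no result about them. The count of 33 was 56 with quantile normalization, which moved the median of all tested loci from -0.01 to -0.15, and 21 without 0.5 h replicate 1. The 0.5 h level entered the rule, which favours loci that are low at that time.

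From 0 h to 96 h, 135 of the 137 were called higher and 0 lower, where 42.4% and 22.5% of all tested loci were (limma, Benjamini-Hochberg adjusted p below 0.05). The 96 h libraries entered the rule, which favours a higher level there. The median change of the 137 was 4.43 on the log2 scale and that of all tested loci 0.23. The mean at 96 h was at least 4 above that at 0 h on this scale in 90 of the 137 (65.7%). This was so in 285 of the 26765 tested loci (1.06%). So 90 of the 285 loci that were this much higher at 96 h than at 0 h are among the 137.

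A minority of the loci had a substantial level at 0 h, a low one in the hours after cutting and a high one again at 96 h. In 22 loci (16.1%) the 0 h mean was at least 2 above the lowest later mean on the log2 scale, and in 4 it was at least 4 above. The rule favours a low lowest mean, and the share of all tested loci of this kind was not counted. The 22 loci had a median of 15.7 FPKM at 0 h, 1.18 FPKM at their lowest time and 41.6 FPKM at 96 h. Their lowest mean was at 1 h in 7, at 2 h in 11, at 6 h in 2 and at 12 h in 2. Of the 34 loci with a last step of at least 4, 0 were of this kind, and of the 38 with a last step under 1, 14 were. In 7 of the 137 loci the 0 h level was within 1 of the 96 h level on the log2 scale or above it.

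**Figure D5:**
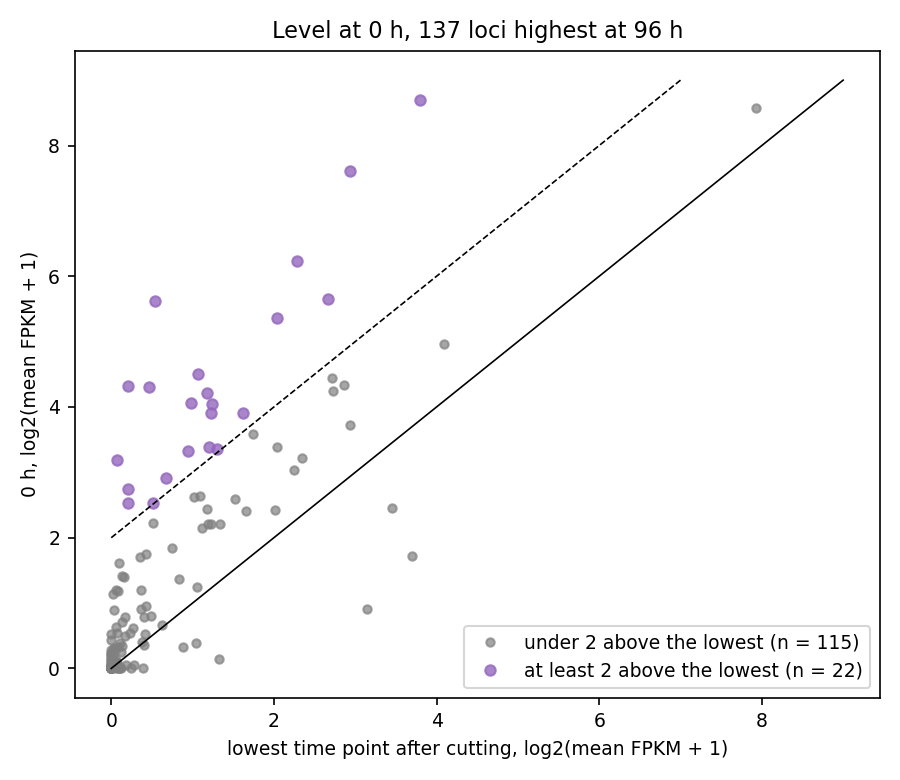
log2(mean FPKM + 1) at 0 h (y axis) against that of the lowest time point after cutting (x axis) for the 137 loci, 1 point each. The solid line marks equal levels and the dashed line a difference of 2, above which lie the 22 purple loci; 80 of the 137 loci were under 1 FPKM at 0 h.

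The highest level of these 22 at 0 h was that of Potri.016G104300, with 1 listed transcript of 789 bp. It held 534 and 295 FPKM at 0 h, 127 and 209 FPKM at 0.5 h, 75.3 and 61.3 FPKM at 1 h, and 13.6 and 12.2 FPKM at 2 h. It then held 16.3 and 29.7 FPKM at 6 h, 69.4 and 71.6 FPKM at 12 h, 319 and 327 FPKM at 24 h, 399 and 587 FPKM at 48 h, and 801 and 715 FPKM at 96 h. Both libraries of 96 h lay above both of 0 h, and those of 48 h overlapped with those of 0 h. Its range after cutting was 5.77 on the log2(mean + 1) scale. The limma estimate of 96 h minus 0 h, taken from the logs of single libraries, was 0.93. At 2 h the locus still had 314 and 284 reads.

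Potri.010G063000, with 1 listed transcript of 705 bp, had a course of the same shape, with like levels at 0 h and 96 h. It held 207 and 180 FPKM at 0 h, 75.6 and 61.9 FPKM at 0.5 h, and 6.63 and 6.66 FPKM at 1 h. It held 8.81 and 10.8 FPKM at 2 h, 40.3 and 69.5 FPKM at 6 h, 105 and 110 FPKM at 12 h, 144 and 142 FPKM at 24 h, 142 and 184 FPKM at 48 h, and 201 and 157 FPKM at 96 h. The libraries of 48 h overlapped with those of 24 h and with those of 96 h, while both of 96 h lay above both of 24 h. Those of 0 h and 96 h overlapped too, with means of 194 ± 19.3 and 179 ± 30.8 FPKM (SD, n = 2 each).

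The locus of rank 88 also had a 0 h mean above that of 96 h. It held 69.4 and 27.4 FPKM at 0 h, 7.51 and 11.6 FPKM at 0.5 h, 1.12 and 1.46 FPKM at 1 h and 0.198 and 0.965 FPKM at 2 h. It stayed at or under 1.32 FPKM from 6 h to 24 h, held 3.55 and 1.77 FPKM at 48 h and had 27.0 and 31.4 FPKM at 96 h. Most of its increase lay in the last interval, whereas Potri.010G063000 already held 144 and 142 FPKM at 24 h. The loci of rank 7 and rank 9 held 49.2 and 49.1 FPKM and 69.3 and 79.1 FPKM at 0 h, had their lowest means at 2 h, with 6.474 and 4.199 FPKM and 3.66 and 4.09 FPKM, and held 264 and 290 FPKM and 264 and 237 FPKM at 96 h, above both libraries of 0 h in each case.

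The loci were also described by features the rule did not use. Of the 137, 100 (73.0%) had 1 listed transcript, against 53.7% of the tested loci. Among loci of like range highest at another time, the share ran from 60% for the 115 highest at 6 h to 76.3% for the 38 highest at 12 h, a span that takes in the 73.0%. By last step, 94.1% of the 34 loci with a step of at least 4 had 1 listed transcript, 75% of those from 2 to 4, 64.0% of those from 1 to 2 and 57.9% of those under 1. In the 37 loci with several transcripts, the leading one held a median of 52.4% of the FPKM at 96 h. Among loci with 1 transcript and a recovered length, the transcripts of 91 members had a median of 1121 bp, with quartiles of 775 and 1466 bp, and those of 14293 tested loci a median of 1330 bp, with quartiles of 832 and 1946 bp. No member of these exceeded 2562 bp.

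Some of the loci are neighbours in the order of the identifiers. In 19 of the 137 (13.9%) the next or previous listed locus was another of the 137, which was so for 0.736% of all tested loci. Counted within the groups of like range highest at another time, it ran from 5.26% of the 38 loci of 24 h to 23.3% of the 103 loci of 48 h, a span that takes in the 13.9%. The 19 loci formed 9 runs, 8 of 2 loci and 1 of 3. In 6 of the 9 runs all loci fell in the same class of last step. Neighbours may be copies of one another that share reads, and how the authors' counting placed such reads is not given in the sources used here.

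Several runs held loci of like course. The neighbour of Potri.001G051600, of rank 15, held 0.152 and 0.0396 FPKM at 0.5 h, 11.6 and 9.85 FPKM at 6 h, 57.7 and 67.1 FPKM at 12 h, and 181 and 170 FPKM at 96 h, and its 0 h libraries differed in the same direction, with 1.24 and 0.0462 FPKM. The neighbours of rank 27 and rank 33 were both among the loci with a last step of at least 4. That of rank 27 was listed at 0 in all libraries before 96 h except 1, with 1.41 FPKM in 48 h replicate 1, and held 125 and 106 FPKM at 96 h. That of rank 33 held 1.43 and 1.28 FPKM at 48 h and 93.2 and 110 FPKM at 96 h. The neighbours of rank 3 and rank 19 shared the maximum at 12 h, with 294 and 295 FPKM and 122 and 139 FPKM, and lower levels of 135 and 88.8 FPKM and 75.4 and 46.1 FPKM at 48 h. The run of 3 held loci of rank 13, rank 17 and rank 96, whose means went from 1.32, 3.28 and 0.377 FPKM at 2 h to 72.6, 66.0 and 12.0 FPKM at 12 h and 183, 160 and 26.6 FPKM at 96 h.

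The members came from every listed prefix of the identifiers, 001 to 017. The share of listed loci that were members was 0.879% for prefix 009 (15 of 1707), 0.673% for 015 (10 of 1485), 0.669% for 003 (15 of 2242), 0.548% for 004 (13 of 2371) and 0.444% for 001 (21 of 4734). It was 0.069% for prefix 012 (1 of 1458), and the list ends within prefix 017.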

How the data were processed

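Each library has 1 deposited table of transcript identifiers and FPKM values, a unit stated only per the file headers of the 0 h tables; the later tables head the column with the library number. Per the submitters' processing notes, Bowtie2 2.2.3 and HISAT2 2.1.0 were used, in roles not stated. Genome build, annotation and quantifier: not given in the sources used here. Each table holds 65535 transcripts of 36385 loci, and loci beyond the last line were not analysed here.

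Locus sums were taken to log2(FPKM + 1), a scale that understates the change of low loci. Loci with at least 1 FPKM in at least 2 libraries, 26765 in all, were tested with limma 3.58.1 in R 4.3.3 (1 mean per time point, all 18 libraries, intensity trend, robust variances, two-sided, Benjamini-Hochberg within each comparison). The procedure was tested on simulated data. Read totals were recovered from the steps of low FPKM values: a total that gives whole transcript lengths, then a length from 60 to 17000 bp that gives whole reads within 0.02 in the 16 later libraries. This gave 60195 of 60197 transcripts above 0 in at least 6 of them a length, and 0 of 2000 altered ones. At 0 h this gave totals of 21914687 and 25026280 reads, and after cutting 28460172 to 30651830. They cover counting error only.

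The members, groups and lists were chosen with earlier results of these data known. The named loci are the member of highest mean at 96 h, that of largest range, and the other two of highest mean at 0 h, since no table pairs identifiers with names. The rule for naming loci that fell was completed after the values were seen. The 17 gene lists and the tissue markers, written as product names, could be matched to no identifier and were not used.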

Additional observations from a re-analysis of the deposited data

How the results depend on the processing

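The number of loci chosen depends on the added constant and on the border. A pseudocount of 0.1 in place of 1 gave 678 loci and one of 0.5 gave 256; the count was 423 with a range of at least 3 and 49 with at least 5, and the wider choices held all 137. Without 1 library it lay between 132 and 148, with at least 125 of the 137 kept, and 112 loci met the rule in the libraries numbered 1 alone and in those numbered 2 alone. Loci called higher at 48 h than at 24 h were 21 with a pseudocount of 0.1 in place of 37, and loci called lower at 0.5 h than at 0 h were 56 with quantile normalization in place of 33; the cause was not tested. Without 1 library, the loci called lower at 0.5 h than at 0 h numbered 21 to 39, those lower at 1 h than at 0.5 h 23 to 36, those higher at 2 h than at 1 h 12 to 17, at 24 h than at 12 h 21 to 27, and at 48 h than at 24 h 18 to 27. The counts of loci called higher at 96 h than at 0 h, 24 h and 48 h stayed within 1.5 times of their counts in the alternatives tried. With the replicate block the counts were 134 for 96 h against 0 h, 131 for 96 h against 24 h and 114 for 96 h against 48 h. The labels do not say whether equal replicate numbers pair the libraries. Over 36 pairs of time points the correlation of the differences between replicates ran from -0.197 to 0.21, above 0.1 in 3. Such correlations cannot decide whether the libraries were paired. The difference of 96 h minus 0 h of Potri.010G063000, whose libraries overlapped, was -0.12 on the log2 scale and 0.06 without 96 h replicate 2. That of the other named loci kept its sign in the alternatives tried. With quantile normalization the median change of all tested loci turned from 0.23 to -0.02 for 96 h against 0 h. For 96 h against 24 h it turned from 0.08 to -0.02. From 0 h to 96 h, 8435 of all tested loci were then called higher and 8872 lower, in place of 11360 and 6033. Levels under about 0.1 FPKM rest on a few reads.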
